A study of Mus musculus with 12 samples.

Results

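H3K27me3 islands of the gut epithelium at E12.5 (E for embryonic day) were compared with those of adult enterocytes (AE), the earliest and the most differentiated population of the series. The comparison uses 4 of the 8 deposited ChIP-seq lists (12 samples in all, the other 4 being inputs): 2 lists for E12.5 and 2 for AE, chosen by their labels. The E12.5 cells were sorted from dissected small intestines as EpCAM-positive, with CD31- and CD45-positive and dead cells gated out. The enterocytes came from the small intestine of Lgr5EGFP-Cre-ERT males at postnatal day 60 and passed the same surface gate. No enterocyte marker defined them, and the labels do not say whether villus or crypt material was sorted, so other epithelial cells can be among them. All mice were of a mixed C57BL/6 CD1 background, and both groups went through the same paraformaldehyde fixation, sonication and antibody. Dissociation differed, with collagenase alone for embryos and EDTA, shaking and collagenase with DNase for adults. The sex and genotype of the embryos, and the number of animals per library, are not given in the labels. The design text calls the libraries of a stage biological duplicates. The E14.5 epithelium and the Lgr5-positive adult stem cells (ISC, from the same kind of adult males), with 2 lists each, enter only as lists that had no part in forming the sets below.

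H3K27me3 is the trimethylation of lysine 27 on histone H3, placed by Polycomb repressive complex 2 through its enzymes EZH2 and EZH1 and read by Polycomb repressive complex 1. It marks genes that are held silent, among them the homeobox clusters and other developmental regulators, and it spreads over broad domains rather than sharp peaks. At E12.5 the gut epithelium is a layer of dividing progenitors without villi. Enterocytes are the absorptive cells that line the adult villus, have left the cell cycle and are shed after a few days.

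The island is the unit of these lists: a run of 200 bp windows in which ChIP reads were enriched over the input. Reads are listed only inside the islands of the same library, so a window outside them was not called, which does not show that the mark was absent there. Genes are not named in the lists, and no mm9 annotation, the build of the lists, was used here. Regions are therefore given by position, marker genes of the 2 cell types could not be checked, and no sequence is shown. A few loci are named as textbook background for their mm9 position, without an annotation. The E12.5 lists held 6171 and 12649 islands covering 62.5 and 76.0 Mb, and the AE lists 8232 and 11845 islands covering 80.0 and 91.0 Mb. E12.5 replicate 1 stood apart. Its islands had the lowest median density of the 4 lists, 17.0 ChIP reads per kb against 21.6 in E12.5 replicate 2 and 34.8 and 24.4 in AE. These densities are not corrected for sequencing depth. Its islands held 1171968 ChIP reads, the islands of the other 3 lists between 2114128 and 3124099. Covered length was 69.3 ± 9.49 Mb for E12.5 and 85.5 ± 7.75 Mb for AE (SD, n = 2 each), without overlap of the groups (p = 0.333 by an exact two-sided permutation test, which is its floor for 2 libraries against 2).

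More H3K27me3 length was called in enterocytes and not at E12.5 than the reverse. Length in both AE lists and in neither E12.5 list, called the AE-alone set here, came to 20.5 Mb in 5232 stretches. Length in both E12.5 lists and in neither AE list, the E12.5-alone set, came to 6.60 Mb in 1794 stretches. Length in all 4 lists, the all-4 set, came to 13.0 Mb in 1879 stretches. Of the 202 Mb called in any of the 4 lists, these sets are 10.1%, 3.26% and 6.44%. A further 66.9% was called in a single list. The E12.5 replicates had 23.3 Mb in common, of which 55.9% was also called in both AE lists and 28.3% in neither. The AE replicates had 44.0 Mb in common, of which 29.6% was also called in both E12.5 lists and 46.5% in neither. The longer common length of the AE replicates thus enters the excess of the AE-alone set. As shared length over the length in either list, the AE replicates had 0.346 and the E12.5 replicates 0.202. Between groups, E12.5 replicate 2 had 0.194 and 0.213 with AE replicates 1 and 2, and E12.5 replicate 1 had 0.146 and 0.153. E12.5 replicate 2 was thus about as close to the AE lists as to the other E12.5 list, and the E12.5 lists did not group by stage. The AE-alone set stayed the longer one, 13.8 against 6.999 Mb, when every list was cut to the same covered length by ChIP over control reads. The order turned when 1 E12.5 list was left out, because a single list then sufficed for E12.5: without E12.5 replicate 1 the sets were 22.8 Mb (AE) and 42.4 Mb (E12.5), and without E12.5 replicate 2 they were 28.6 and 39.4 Mb. Without AE replicate 1 or 2 the AE-alone set was 56.7 or 50.8 Mb beside 7.87 or 9.01 Mb, by the same rule in the other direction.

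**Figure D1:**
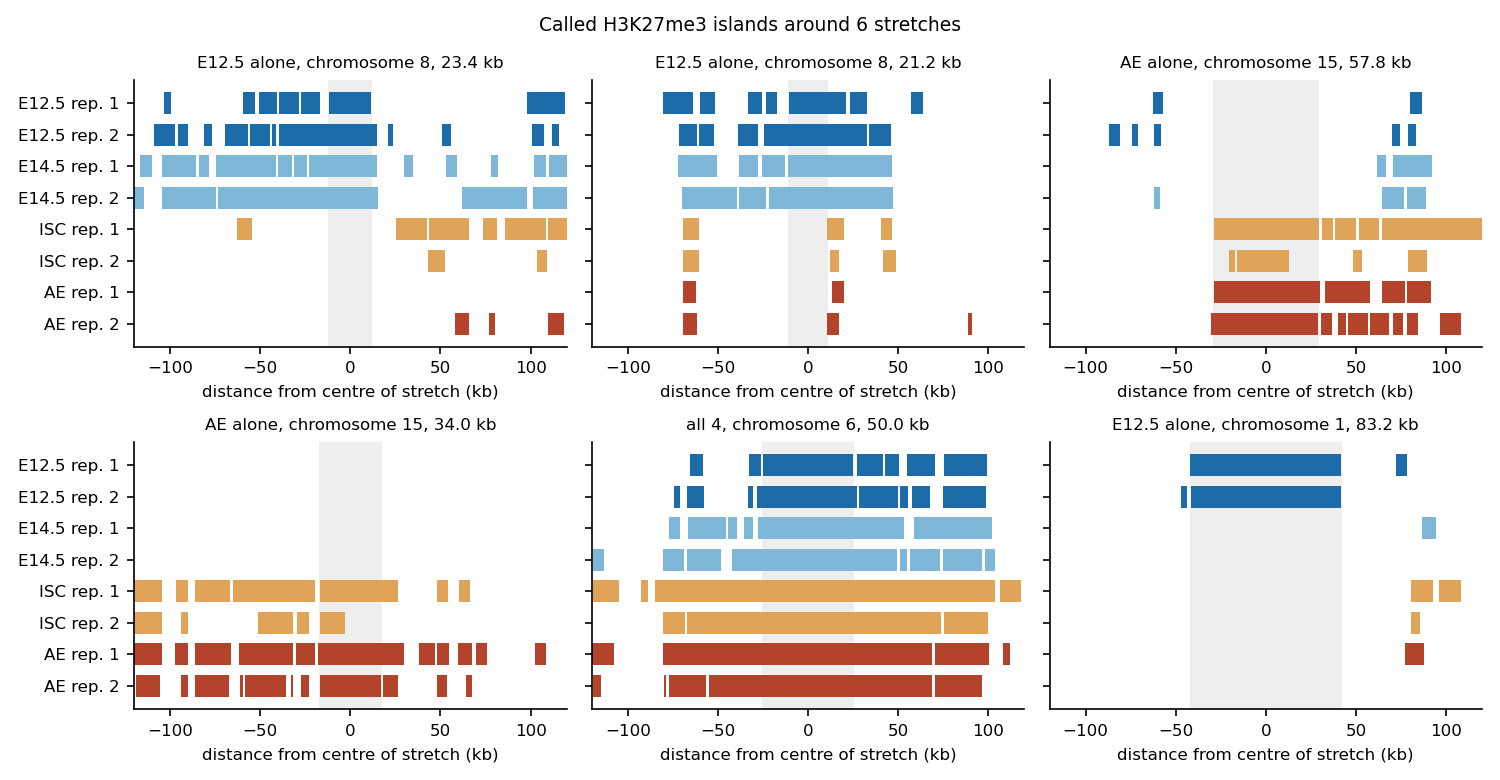
Islands of the 8 lists (bars, coloured by population) around 6 stretches, against distance from the centre of the stretch in kb; the grey band is the stretch. The first pair of chromosome 8 panels shows islands at E12.5 and E14.5 where AE has none over the band, the chromosome 15 panels islands in AE and ISC where E12.5 and E14.5 have none over the band, the chromosome 6 panel AE islands that reach far past the band where E12.5 has several separate islands, and the chromosome 1 panel a band called at E12.5 only.

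Several of the longest stretches called in all 4 lists lie at homeobox loci, textbook Polycomb targets. The longest all-4 stretch spanned 68.0 kb on chromosome 15 (102775601 to 102843600), where mm9 places the HoxC homeobox cluster. The second spanned 56.6 kb on chromosome 11 (96111201 to 96167800, HoxB) and the fourth 50.0 kb on chromosome 6 (52154801 to 52204800, HoxA). Hox genes encode the transcription factors that give position along the body axis. A chromosome 19 stretch (44804001 to 44841600, 37.6 kb) and a chromosome 2 stretch (105498601 to 105534200, 35.6 kb) lie where mm9 has Pax2 and Pax6, regulators of kidney and of eye and endocrine development. The others were on chromosome 4 (115594001 to 115639800, 45.8 kb) and chromosome 6 (83634201 to 83675200, 41.0 kb). The third in length, 55.0 kb on chromosome Y (2847601 to 2902600), differed in kind. It held 291 control reads per kb in E12.5 and 350 in AE, at least 13.97 times the median of the same list, whereas the 7 autosomal stretches had 0.976 to 1.29 times that median in the 4 lists.

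At HoxA the called islands were in more pieces and covered less at E12.5 than in enterocytes. Within 100 kb either side of the stretch's centre, E12.5 islands covered 124.8 and 130.8 kb in 7 and 8 pieces, and AE islands covered 179.2 and 172.2 kb in 2 and 4 pieces. E14.5 stood between them in covered length with 159.4 and 167 kb, but in 6 and 7 pieces, about as many as E12.5. ISC had 189.2 and 177.6 kb in 2 and 3 pieces. The populations' covered lengths do not overlap except between ISC and AE. The island over the stretch itself was 50.0 and 55.4 kb long at E12.5, 80.8 and 91.8 kb at E14.5, 188.4 and 141.0 kb in ISC and 149.4 and 124.0 kb in AE. Density over HoxA did not follow the same order within lists. Relative to the median island of the same list, HoxA held 1.75 and 3.38 times the ChIP reads per kb at E12.5 and 1.78 and 1.67 times in AE.

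HoxB and HoxC, the other Hox loci among the 8 longest all-4 stretches, parted the groups by covered length but not by the length of the island over the stretch. At HoxB the islands were 56.6 and 70.0 kb at E12.5 and 145.2 and 65.4 kb in AE, and at HoxC 118.8 and 120 kb against 162.6 and 76.6 kb, so both pairs overlap. Within 100 kb either side of the HoxB centre the covered length was 139.2 and 172.6 kb at E12.5 and 195.4 and 184.6 kb in AE, without overlap. Around HoxC it was 144.4 and 152.0 kb against 189.4 and 167.2 kb, again without overlap. At Pax2 the AE islands were the longer, 52.2 and 52.0 kb against 39.6 and 37.6 kb. At Pax6 they overlapped, 47.6 and 37.0 kb in AE against 37.4 and 45.8 kb at E12.5.

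**Figure D2:**
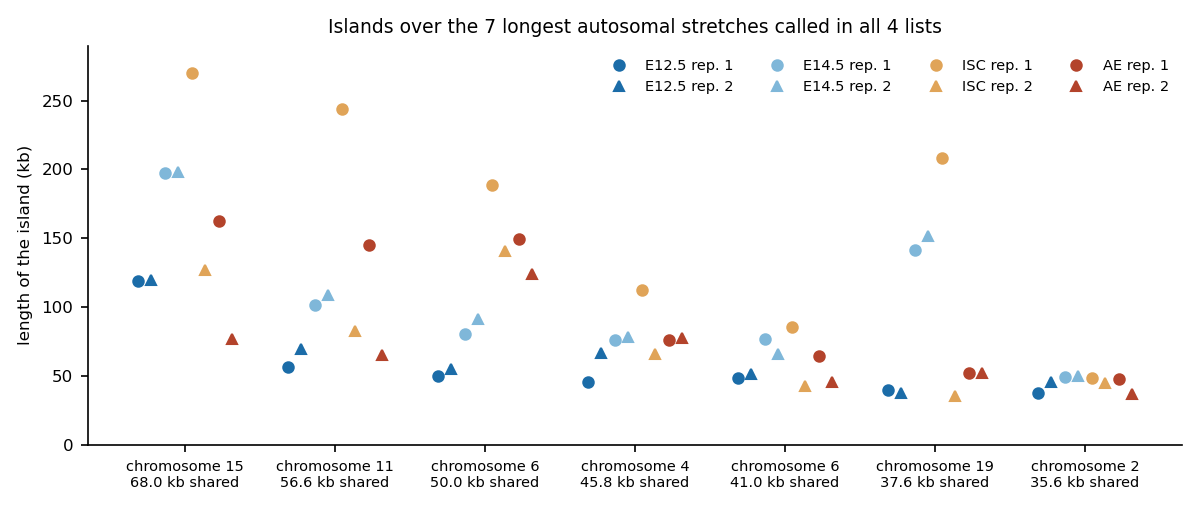
Length in kb of the longest island over each of the 7 longest autosomal stretches called in all 4 lists; circles are replicate 1, triangles replicate 2, colours the populations. On chromosome 6 (50.0 kb shared, HoxA) E12.5 lies at 50.0 and 55.4 kb and AE at 149.4 and 124.0 kb, while at the other Hox stretches (chromosomes 15 and 11) the 2 groups overlap.

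Across the whole all-4 set, longer enterocyte islands were the more frequent case. Over 638 of the 1879 stretches (34% of them) both AE islands were longer than both E12.5 islands, and over 202 stretches (10.8%) both E12.5 islands were longer. Stretches under the same island are not independent, so these are counts only. Among the 78 stretches of 20 kb or more the counts were 40 and 2. Median islands over the set were 11.2 and 11.0 kb at E12.5 and 16.6 and 13.6 kb in AE. With lists cut to equal covered length by the ratio of ChIP to control reads, the counts over the 1365 stretches then called in all 4 lists were 420 and 167.

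Stretches called in enterocytes and not at E12.5 were mostly short, with 40 broad ones. Their median length was 3.0 kb (quartiles 1.4 and 5.0 kb), against 5.4 kb in the all-4 set, and 258 of 5232 were a single window. The 40 stretches of 20 kb or more made up 5.38% of the length. The longest spanned 57.8 kb on chromosome 15 (100591001 to 100648800). Its AE islands held 46.6 and 30.3 ChIP reads per kb, 1.34 and 1.24 times the median island of their lists, with control at 1.41 and 1.24 times. The E14.5 lists did not call it, while ISC replicate 1 covered 99.7% and ISC replicate 2 56.1% of it. The most isolated of the 10 longest was also on chromosome 15 (82508801 to 82542800, 34 kb), 195 kb from the nearest E12.5 island. Within 100 kb of its centre AE islands covered 145.4 and 103.8 kb, ISC islands 128.4 and 43.2 kb, and neither embryonic age had any island.

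A group of 4 among the 10 longest lay on chromosome 9: 110621001 to 110662200 (41.2 kb), 114439001 to 114480000 (41.0 kb), 64408601 to 64448600 (40.0 kb) and 42734001 to 42766000 (32.0 kb). None of these 4 touched an E14.5 island, ISC replicate 1 covered each fully, and ISC replicate 2 covered 62.1%, 75.6%, 40.5% and 84.4%. The stretch on chromosome 13 (55564801 to 55600400, 35.6 kb) and that on chromosome 7 (52918001 to 52951400, 33.4 kb) followed the same pattern, with ISC replicate 2 at 84.8% and 95.8%. The chromosome 7 stretch had the densest AE islands of the 10, 60.6 and 40.8 ChIP reads per kb, or 1.74 and 1.67 times the list medians. Control reads there were at 1.36 and 1.28 times. These islands were 102.6 and 41.4 kb long, so the densities are not those of the stretch alone. The remaining 2, on chromosome 17 (28270201 to 28306800, 36.6 kb) and chromosome 15 (81570001 to 81604400, 34.4 kb), abutted an E12.5 island. E14.5 covered 13.7% and 31.7% of the first, and 0% and 13.4% of the second. None of the 10 had control reads at more than 1.59 times the list median in an AE list.

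Stretches called at E12.5 and not in enterocytes had the same median length, 3.0 kb (quartiles 1.2 and 5.0 kb), but their longest members were of a different kind. The longest, on chromosome 1 (90106001 to 90189200), measured 83.2 kb, and the next, on chromosome 11 (3025401 to 3100200), 74.8 kb. Another chromosome 1 stretch (85234401 to 85297200) had 62.8 kb, and one of chromosome 17 (13401401 to 13432800) had 31.4 kb. Control reads over them were at 5.10 and 5.14, 20.3 and 21.2, 2.63 and 2.75, and 2.03 and 2.15 times the median of E12.5 replicates 1 and 2. The chromosome 11 stretch held 424 and 440 control reads per kb and was called in all E14.5 and ISC lists as well, so that among the 8 lists only the AE lists lack it. High control density moved with these 4 calls, and its part in them was not tested. Islands with control reads above 2 times the list median made up 6.63% of the E12.5-alone length in each E12.5 list, but 0.188% and 0.1798% of the AE-alone length in the AE lists. Without such islands the E12.5-alone set was 6.16 Mb.

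The longest E12.5-alone stretch with ordinary control reads was 23.4 kb on chromosome 8 (112576001 to 112599400). There the islands held 17.9 and 32.5 ChIP reads per kb at E12.5, 1.05 and 1.51 times the list medians, with control at 1.03 and 0.967 times. Within 100 kb of its centre E12.5 islands covered 64.2 and 101.0 kb and E14.5 islands 120.2 and 150.0 kb. AE islands covered 0 and 10.8 kb there, and ISC islands 69.8 and 9.2 kb. A second stretch on chromosome 8 (87284201 to 87305400, 21.2 kb) abutted an AE island. Among the 10 longest with ordinary control reads it had the densest E12.5 islands, 1.35 and 2.21 times the list medians. Around it E12.5 covered 87.0 and 99.0 kb, E14.5 103.2 and 113.6 kb, ISC 24.6 and 22.0 kb and AE 14.6 and 16.8 kb. At the second place each embryonic list covered more than any adult list, and the adult lists called 2 or 3 islands each. At the first, ISC replicate 1 covered more than E12.5 replicate 1.

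The other 4 of the 10 were chromosome 15 (85843801 to 85865800, 22.0 kb), chromosome 2 (26141601 to 26162200, 20.6 kb), chromosome 19 (7153001 to 7173400, 20.4 kb) and chromosome 1 (137802201 to 137822200, 20.0 kb). Their E12.5 islands lay at 0.898 to 1.303 times the list medians in ChIP reads per kb, close to an ordinary island. Both E14.5 lists called most of the chromosome 15, 19 and 1 stretches (70.6% to 100%), whereas E14.5 replicate 1 did not call the chromosome 2 stretch. ISC replicate 1 covered 97.3% of the chromosome 15 and 83.5% of the chromosome 2 stretch. ISC replicate 2 covered none of the 4. The chromosome 1 stretch lay in a neighbourhood that AE covered more than E12.5 did, with 55.6 and 66.8 kb in AE and 22.8 and 53.6 kb at E12.5 within 100 kb of its centre. Around the other 3, AE islands covered 0 to 25.6 kb and E12.5 islands 32.6 to 66.4 kb.

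Some of the changed stretches are edges of islands that both groups share, and some stand by themselves. Of the AE-alone stretches 45.4% abutted an island of at least 1 E12.5 list, with a median length of 1.6 kb, and 31.7% had no E12.5 island within 20 kb, with a median of 4.0 kb. Of the E12.5-alone stretches 34.8% abutted an AE island (median 1.2 kb), and 39.4% had none within 20 kb (median 3.8 kb). By length, stretches without an island of the other group within 20 kb made up 39.7% of the AE-alone set (8.12 Mb) and 51.8% of the E12.5-alone set (3.42 Mb). Few stretches directly abutted the all-4 set, 55 for AE and 46 for E12.5. Such contact needs both lists of the other group to start or end at the same 200 bp window. These counts therefore do not show how many changed stretches extend shared islands.

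In each of the 4 lists, ChIP read density was higher over the all-4 set than over the changed set of that list. Relative to the median over all called windows of the same list, the all-4 set lay in islands with 1.21 and 1.805 times the ChIP reads per kb at E12.5 and 1.276 and 1.31 times in AE. The E12.5-alone set lay at 1.03 and 1.15 times in the E12.5 lists, and the AE-alone set at 1.02 and 0.993 times in the AE lists. Control reads over the changed sets were at 0.939 to 1.03 times the list medians. Over the all-4 set they were at 1.040 and 1.036 times at E12.5 and 1.17 and 1.07 times in AE. By ChIP over control reads, relative to the list, the all-4 set lay at 1.16 and 1.71 at E12.5 and 1.087 and 1.21 in AE. The changed sets lay at 1.002 and 1.046 in the E12.5 lists and 0.990 and 1.053 in the AE lists. By this measure the gap was smallest in AE replicate 1. The changed sets were thus called in islands of about ordinary density, and the gap to the all-4 set was widest in E12.5 replicate 2. Islands that touched an island of both lists of the other group were also longer than those that touched neither, for example 13.2 against 6.0 kb (medians) in AE replicate 1 and 10.0 against 8.6 kb in E12.5 replicate 1. A long island has more chances to touch another, which by itself gives a difference of this sign.

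**Figure D3:**
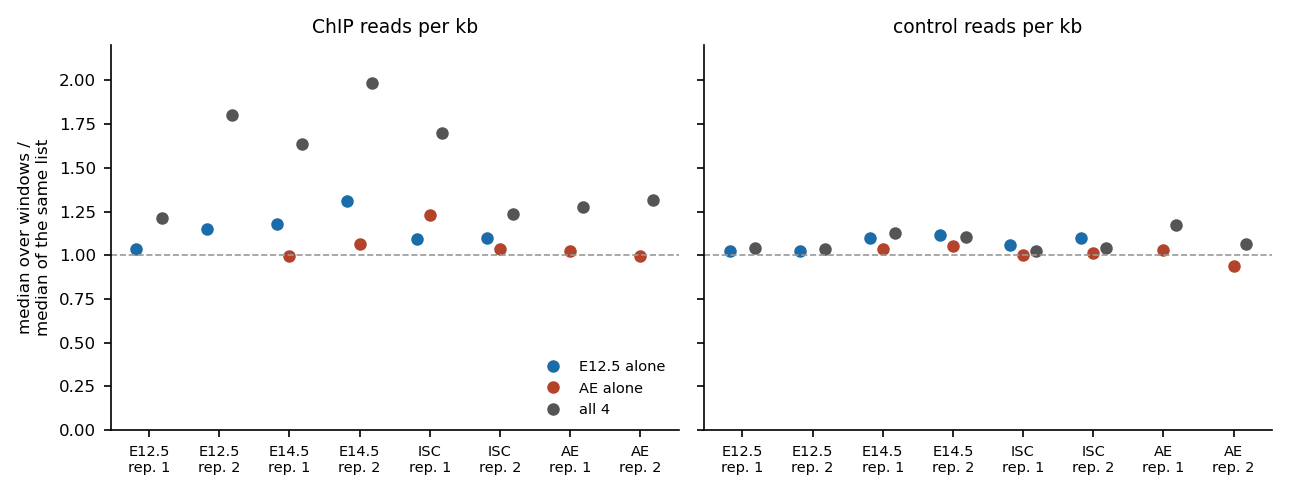
ChIP reads per kb (left) and control reads per kb (right) of the islands over each set, as the median over windows divided by the median of the same list; each point is 1 list and the dashed line is the list median. In the E12.5 and AE lists the all-4 set lies at 1.21 to 1.805 for ChIP reads, the changed sets at 0.993 to 1.15, and control reads of all sets lie between 0.939 and 1.17.

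The E14.5 lists called more of the E12.5-alone set, and the ISC lists more of the AE-alone set; neither formed the sets. Both E14.5 lists called 50.2% of the E12.5-alone length and 16.8% of the AE-alone length, beside 23.1% of all length called in any of the 4 lists. Both ISC lists called 11.5% of the E12.5-alone and 39.2% of the AE-alone length, beside 20.2%. Length outside the 4 lists was called in both E14.5 lists at 0.426% and in both ISC lists at 0.368%. Each single list gave the same order. E14.5 replicates 1 and 2 called 53.0% and 65.5% of the E12.5-alone set and 20.7% and 31.6% of the AE-alone set. ISC replicates 1 and 2 called 43.3% and 14.52% of the E12.5-alone set and 87.9% and 40.4% of the AE-alone set. ISC replicate 1 is by far the longest list at 241 Mb and called 55.9% of any length, so its shares are to be read beside that value. Its 43.3% of the E12.5-alone set lies below it and its 87.9% of the AE-alone set above it. The E14.5 order turned when E12.5 replicate 2 was left out. Without it both E14.5 lists called 11.4% of the E12.5-alone and 33.1% of the AE-alone length, and without E12.5 replicate 1 they called 24.7% and 19.8%. In these runs a single E12.5 list formed the E12.5-alone set and a single one was excluded from the AE-alone set. The E12.5-alone set without replicate 2 was 39.4 Mb. The part of the library and that of the changed rule cannot be told apart here. The E12.5 and E14.5 libraries come from embryos and the ISC and AE libraries from adults, and handling that differed with age cannot be told apart from age.

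**Figure D4:**
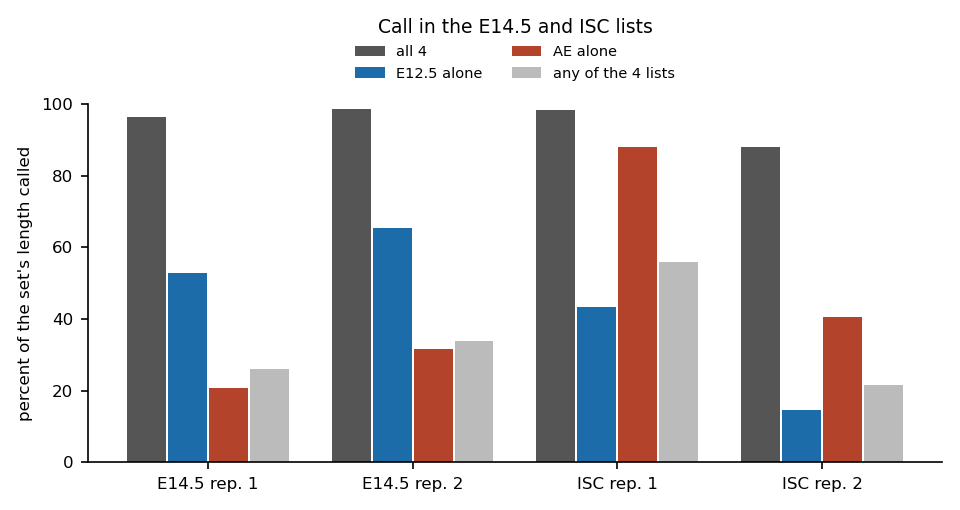
Percent of the length of each set (bars) that each of the 2 E14.5 and 2 ISC lists called, with length called in any of the 4 E12.5 and AE lists in light grey. The E12.5-alone bars exceed the AE-alone bars in both E14.5 lists and lie below them in both ISC lists; the all-4 bars lie between 88.0% and 98.6%.

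For the E12.5-alone set, 31.8% was called in neither E14.5 list and 53.7% in neither ISC list, beside 63% and 42.6% of any length. The part called in both E14.5 lists and in neither ISC list was 21.4% (1.41 Mb), and the part called in no other list was 22.6% (1.49 Mb). The same calls in the E14.5 and ISC lists held for 3.46% and 35.0% of any length. For the AE-alone set, 64.5% was called in neither E14.5 list and 10.9% in neither ISC list. The part called in both ISC lists and in neither E14.5 list was 21.7% (4.45 Mb), the part called in both of both populations 9.41% (1.93 Mb), and the part called in AE only 8.80% (1.8004 Mb). Of any length, 5.59%, 11.7% and 35.0% had these calls in the E14.5 and ISC lists. Over all stretches, 898 of 1794 E12.5-alone stretches (50.1%) were called over at least 50% of their length in both E14.5 lists and 274 (15.3%) in both ISC lists. For AE-alone stretches these counts were 1379 of 5232 (26.4%) and 2047 (39.1%). Among E12.5-alone stretches of 10 kb or more, 52 of 70 (74.3%) were so called in both E14.5 lists and 8 (11.4%) in both ISC lists. Among AE-alone stretches of that length, 29 of 328 (8.84%) were so called in both E14.5 lists and 170 (51.8%) in both ISC lists, and 5 touched no ISC island. No share over all called stretches of the same length was computed, so these stretch counts describe the changed sets only. The shares of any length are by window and are not their background. The all-4 set was called in both E14.5 lists over 95.8% and in both ISC lists over 86.9% of its length.

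Length called in a single one of the 4 lists behaved differently in the 2 E12.5 replicates. Of the 32.8 Mb called in E12.5 replicate 1 alone, 3.58% was called in both E14.5 lists, and of the 35.8 Mb called in E12.5 replicate 2 alone, 20.0%. Single-list length made up 52.5% and 47.2% of these lists, and 37.9% and 39.8% of the AE lists. The 30.3 and 36.2 Mb called in one AE list alone were called in both ISC lists at 12.7% and 9.50%. All 4 values lie below those of the matching 2-list sets, 50.2% and 39.2%. Length in 2 lists is selected for recurrence, so this order follows from the selection and is no result on the libraries. In both E14.5 lists the length of AE replicates 1 and 2 alone was called at 7.71% and 5.06%, between the values of the E12.5 replicates.

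By chromosome, the AE-alone length exceeded the E12.5-alone length on 19 of 19 autosomes. The ratio ran from 1.63 on chromosome 17 to 5.76 on chromosome 3. Chromosome 15 had the highest share of AE-alone length, 14.1% of its length called in any list (range over autosomes from 7.94%, on chromosome 12). Chromosome 17 had the highest share of E12.5-alone length, 5.39%, and chromosome 13 the lowest, 2.06%. The all-4 share was highest on chromosome 19, at 10.02%, and lowest on chromosome 16, at 3.42%.

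Chromosome X was the exception, with 0.0506 Mb E12.5-alone and 0.0200 Mb AE-alone, a ratio of 0.395. These are short lengths that move with single libraries. The E12.5-alone length on X was 0.803 and 0.162 Mb without E12.5 replicates 1 and 2, and 0.0660 and 0.0760 Mb without AE replicates 1 and 2. The AE-alone length was 0.0232, 0.0576, 0.0532 and 0.0586 Mb in the same order, below the E12.5-alone length each time. E12.5 replicate 2 had 215 islands and 1.06 Mb on X, E12.5 replicate 1 had 35 islands and 0.2702 Mb, and the AE lists 45 and 59 islands with 0.228 and 0.246 Mb. On X, E12.5 replicate 1 thus lay near the AE lists and replicate 2 far above them. The E14.5 lists had 2.24 and 3.16 Mb on X, and the ISC lists 0.325 and 0.183 Mb. The adults were males and the sex of the embryos is not given, so age and sex cannot be told apart on this chromosome.

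**Figure D5:**
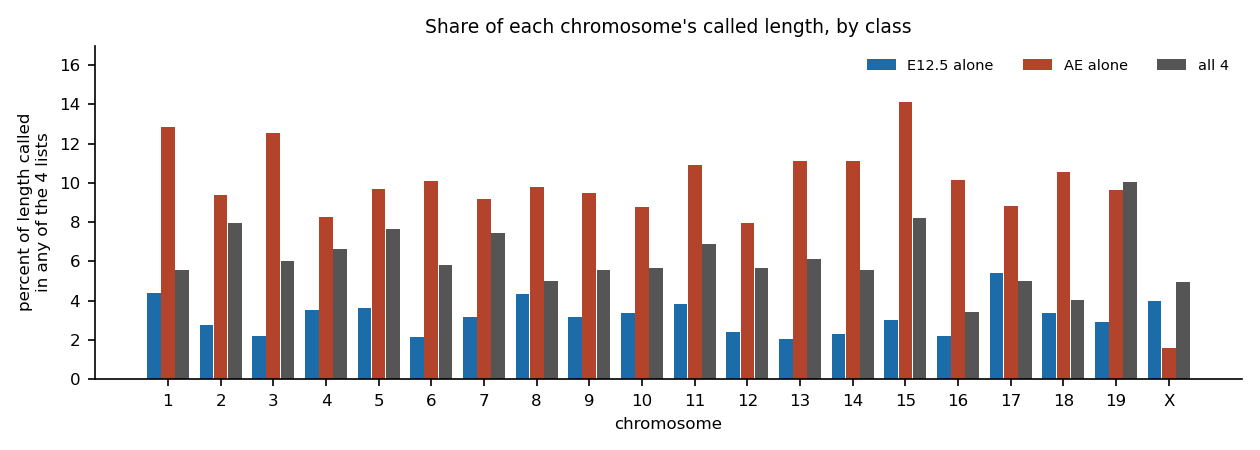
Percent of the length called in any of the 4 lists that falls in each set, by chromosome (chromosome Y left out). AE-alone bars exceed E12.5-alone bars on every autosome, by the highest ratio on chromosome 3 (5.76), and the order is turned on chromosome X.

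Changed length was also gathered in certain megabases. The 1 Mb bin with most AE-alone length was chromosome 15 from 101000001 to 102000000, with 245.6 kb AE-alone, 11.8 kb E12.5-alone and no all-4 length. Mouse chromosome 15 carries the type II keratin genes there, which encode the basic partners of epithelial intermediate filaments. In that bin E12.5 lists covered 60.4 and 73.2 kb, E14.5 lists 114.8 and 229.6 kb, ISC lists 498.4 and 145.2 kb and AE lists 406.2 and 421.4 kb. The next bins were chromosome 15 from 82000001 (186.4 kb) and from 100000001 (140.4 kb), chromosome 11 from 96000001 (138.6 kb, the HoxB bin, with 208.4 kb all-4) and chromosome 5 from 119000001 (132.6 kb). The chromosome 5 bin had neither E12.5-alone nor all-4 length. E12.5-alone length peaked at 111.2 kb on chromosome 1 from 85000001, 83.2 kb on chromosome 1 from 90000001 and 78.2 kb on chromosome 11 from 3000001, the bins of 3 of the high-control stretches above. They were followed by chromosome 8 from 112000001 (76.0 kb, with 0.6 kb AE-alone), where E12.5 lists covered 126.0 and 162.4 kb and AE lists 29.6 and 35.6 kb, and by chromosome 15 from 85000001 (73.8 kb). Of 2651 bins, 625 held both kinds of changed length, 691 held only AE-alone and 196 only E12.5-alone length.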

How the data were processed

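Each list was deposited without a header. The submitters' processing notes name SICER 1.1, SAMtools 1.2, Bowtie 1.1.2 and bcl2fastq 1.8.4, and the mm9 build. Settings are not given in the sources used here. The first 5 columns hold position (chromosome, start, end) and 2 raw counts as deposited, ChIP reads and control reads, judged from their values. The deposited p-value, fold and FDR columns were not used. Islands were called per library. In the intervals that replicates share exactly (30 in E12.5, 41 in AE) control counts were equal and ChIP counts differed, so replicates share a control and none is a copy.

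Lists were painted on the 200 bp grid (Python 3.11.15, numpy 2.4.6), and positions are 1-based. The painting was tested on simulated data. Reads per kb are those of the whole island and for the sets were compared within a list, since the libraries' depth is not in the lists. Only the raw medians that describe the lists are set side by side. No test of counts between libraries was run, since changed stretches have counts in 1 group only and library totals are unknown. Regions named are the 10 longest of each changed set, the 8 longest all-4 stretches, the 5 longest changed stretches with no island of the other group within 20 kb, and the 5 top bins of 1 Mb. Of the stretches without a neighbour, the 5 longest are all among the 10 longest in either direction. The members and lists were chosen with earlier results of these data known. Alternatives were equal covered length (by ChIP over control reads, or by ChIP reads per kb), the upper 50% of islands by ChIP over control reads, control density, islands of at least 2 kb, gaps up to 1 kb joined, a 1 kb guard, sex chromosomes, and each replicate left out. Gene lists and cell type markers were not analysed here.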

Additional observations from a re-analysis of the deposited data

How the results depend on the processing

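The AE-alone set exceeded the E12.5-alone set in 10 of 12 alternatives. These 10 include the runs without an AE list, where 1 list suffices for AE by construction (differences of 48.8 and 41.8 Mb). They also include the joining of gaps up to 1 kb, which changed no length and so tested nothing. The difference of 13.9 Mb became 6.84 Mb at equal covered length by ChIP over control reads, 6.95 Mb at equal covered length by ChIP reads per kb and 4.23 Mb in the upper 50% of islands. It reversed to -19.6 Mb without E12.5 replicate 1 and to -10.8 Mb without E12.5 replicate 2, where 1 list suffices for E12.5 by construction, and over the replicates left out it ran from -19.6 to 48.8 Mb. In the upper 50% of islands the E12.5-alone, AE-alone and all-4 sets were 4.27, 8.50 and 6.87 Mb, and at equal covered length by ChIP reads per kb the AE-alone set was 13.1 Mb. With single replicates left out the sets ran from 7.87 to 42.4, from 22.8 to 56.7 and from 14.3 to 21.1 Mb.

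In the upper 50% of islands, 67.8% of the E12.5-alone length was called in both and 15.8% in neither E14.5 list. At equal covered length by ChIP over control reads, 73.5% of the AE-alone length was called in neither E14.5 list. With single replicates left out, the E12.5-alone shares ran from 11.4% to 55.8% (both E14.5), 26.3% to 79.3% (neither E14.5), 3.56% to 19.01% (both ISC) and 42.1% to 75.1% (neither ISC). The AE-alone shares ran from 9.31% to 33.1%, 49.02% to 75.9%, 20.2% to 46.2% and 8.47% to 29.5%. The lowest E12.5-alone share in both E14.5 lists, and the highest AE-alone one, came without E12.5 replicate 2. The order of the sets in the E14.5 lists then turned, in a run where 1 list sufficed for E12.5 by construction. Without E12.5 replicate 1 the E12.5-alone share was 24.7%.

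The AE-longer count of 420 at equal covered length comes from an alternative chosen after seeing the data. No paired analysis was possible because set membership comes from no test, and replicate numbers are not known to pair the samples. Depth outside islands is unknown, which limits every statement on length not called.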
